A study of Mus musculus with 12 samples.

Results

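The lymphatic endothelial genes described here are 9 genes of the embryonic mouse heart: *Lyve1*, *Prox1*, *Nrp2*, *Flt4*, *Pdpn*, *Vegfc*, *Ccbe1*, *Stab1* and *Stab2*. They were taken by symbol from 20368 genes with a value in each library, and all 9 are among the 19424 genes that the deposited genotype comparisons hold. *Lyve1*, *Prox1* and *Nrp2* had been reported as changed at the later stage from these libraries, and *Lyve1* had been shown at both stages. The genotype comparison at E12.5, and that of *Lyve1* at E11.5, therefore took part in the choice: members were chosen by the mutant over control expression values of that comparison, and for these the levels are described with no p-value.

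Whole hearts of CD1 mouse embryos were sequenced at embryonic day 11.5 (E11.5) and at E12.5, with 3 libraries in each of 4 groups. Control hearts were *Mesp1Cre*;*Hira*+/fl and mutant hearts were *Mesp1Cre*;*Hira*-/fl. All 4 groups carried the *Mesp1Cre* allele and 1 floxed *Hira* allele, so controls were heterozygous for *Hira* in the cells that had expressed Cre, while mutants had a constitutive null allele in every cell and lost the other copy in the *Mesp1* lineage, which is the early cardiogenic mesoderm and its descendants. HIRA is a chaperone that deposits the histone variant H3.3. Cells outside the *Mesp1* lineage kept 1 functional allele in mutants, and nothing in the labels ties a library to a litter. Each library is called a heart below, although the sources do not say whether it held 1 heart or several. The p-values measure the spread between these libraries, which may be technical.

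The depth of a library, counted over the genes compared, was between 11994148 and 17483982 reads. By their Y-linked reads, all 3 E11.5 control hearts and 1 of 3 E11.5 mutant hearts were male, and so was 1 heart in each E12.5 group. *Hira* itself, counted over the whole gene and so not a check of the deleted exon, stood at 78.1 ± 8.89 CPM (reads scaled to library size, SD, n = 3) in controls and 64.6 ± 8.43 in mutants at E11.5, and at 75.1 ± 13.1 and 73.7 ± 5.19 CPM at E12.5. Cardiomyocyte markers were abundant in all groups and edgeR, DESeq2 and limma called none of the 10 tested at either stage, with 0 at an unadjusted p under 0.05 at E11.5 and 4 at E12.5. Libraries of a stage also differed by gene length. The correlation of a library's deviation from its stage mean with log2 gene length was taken over 10648 genes at E11.5. It ran from -0.506 in mutant 3 to 0.506 in mutant 1 there, and from -0.274 to 0.414 at E12.5. For the long genes *Prox1*, *Nrp2*, *Flt4* and *Stab1*, fold changes without that trend are also given for the genotypes at both stages. The levels of single libraries below still hold it.

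Lymphatic vessels return tissue fluid to the veins. Their endothelium arises when venous or other endothelial cells switch on the homeobox factor PROX1, and these cells then grow towards the ligand VEGF-C, which is cut into its active form with the help of the secreted protein CCBE1 and binds the receptor VEGFR3, the product of *Flt4*, with neuropilin 2 (NRP2) as coreceptor. LYVE1 is a hyaluronan receptor and podoplanin (PDPN) a membrane glycoprotein of lymphatic endothelium. None of the 9 genes is specific to lymphatic cells in the heart. Cardiomyocytes also use *Prox1*, tissue macrophages also carry LYVE1 and stabilin 1, epicardial cells also carry podoplanin, and both stabilins are scavenger receptors of sinusoidal endothelium.

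Levels of different genes can be compared only per unit of length. In E12.5 controls, RPKM, which are CPM divided by gene length, averaged 19.4 ± 0.88 for *Stab1*, 12.6 ± 2.10 for *Vegfc*, 12.0 ± 1.116 for *Pdpn* and 10.5 ± 1.21 for *Prox1*. *Flt4* had 6.87 ± 0.553 RPKM, *Lyve1* 4.84 ± 0.885 and *Nrp2* 4.803 ± 0.453, and the libraries of these last 2 overlapped. *Ccbe1* with 0.391 ± 0.064 RPKM and *Stab2* with 0.277 ± 0.0959 came last and overlapped each other. The order differed at E11.5, where *Pdpn* led the controls with 16.2 ± 3.36 RPKM, followed by *Vegfc* and *Stab1* with overlapping libraries, and *Prox1* stood at 4.37 ± 1.34 beside *Nrp2* and *Flt4*. *Stab2* stayed under the minimum for testing, a mean of 0.5 RPKM over the libraries of a comparison, in every comparison. *Ccbe1* passed that minimum at E11.5 and among controls through the E11.5 control hearts alone, so its values in those comparisons are descriptions, with no p-value.

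**Figure D1:**
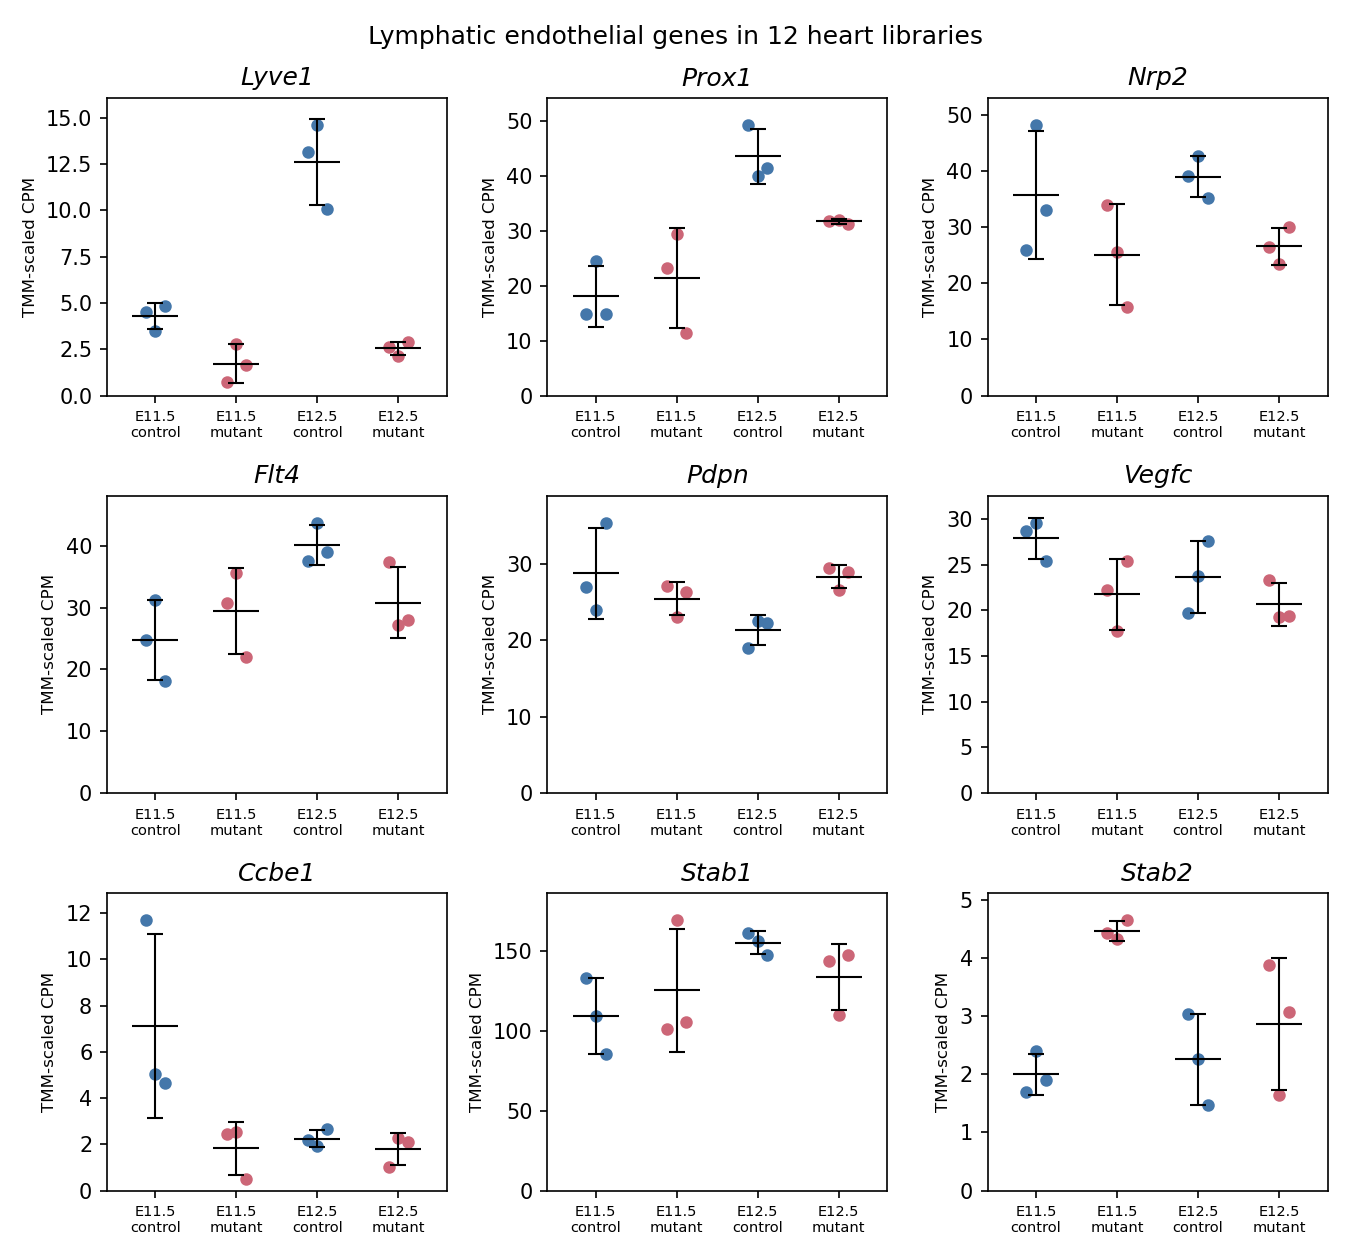
Level of each of the 9 genes in the 12 libraries, in CPM scaled by the TMM method; each point is 1 heart library, blue for controls and red for mutants, and the black bars are the mean and SD of the 3 libraries of a group. The 3 E12.5 control hearts lie between 10.1 and 14.6 CPM of *Lyve1*, above all other hearts.

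*Lyve1*, on chromosome 7 from 110850607 to 110863239 of GRCm38 (minus strand, 6 exons), showed the largest difference between mutant and control hearts at E12.5 among the 7 genes tested at that stage. At E11.5 the 3 control hearts had 69, 54 and 69 reads and the 3 mutant hearts 11, 46 and 19. After TMM scaling, which sets the libraries to a common effective size, the controls had 4.51, 3.49 and 4.84 CPM and the mutants 0.705, 2.80 and 1.64 CPM. Every mutant heart lay under every control heart, but the mutants spread over a wide range, with mutant 2 nearest to the controls. The log2 fold change, mutant over control, was -1.30 (SE 0.44), and it was -1.88 without mutant 2 and -0.93 without mutant 1. With the sex of the embryo in the fit it was -1.36 (SE 0.69). All 3 E11.5 controls were male, and mutant 3 was the only male E11.5 mutant. Every E11.5 genotype value with sex in the fit thus rests on mutant 3 alone against the controls. At E12.5 the controls had 199, 259 and 164 reads, or 13.1, 14.6 and 10.1 CPM, and the mutants 39, 37 and 44 reads, or 2.61, 2.16 and 2.88 CPM. The groups stood far apart, and the mutants now lay close together. *Lyve1* averaged 12.6 ± 2.31 CPM in controls and 2.55 ± 0.363 CPM in mutants, a log2 fold change of -2.29 (SE 0.20). The level in a whole heart is a product of the number of cells that carry the RNA and of the RNA in each, and in these bulk libraries fewer *Lyve1* cells and less *Lyve1* RNA per cell cannot be told apart.

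The hyaluronan and scavenger receptors related to *Lyve1* by function, the stabilins, showed a smaller fall than *Lyve1* or a higher mean in mutants. *Stab1* (chromosome 14, 31139013 to 31168641, 69 exons) was the most abundant of the 9 genes by reads. It had 2032, 1694 and 1213 reads in the E11.5 controls and 1574, 2783 and 1221 in the mutants, in overlapping groups of 109 ± 23.8 and 125 ± 38.2 CPM. The log2 fold change was 0.20 (SE 0.23, edgeR adjusted p = 0.875, from its quasi-likelihood test), and -0.034 with sex in the fit. At E12.5 *Stab1* averaged 155 ± 7.03 CPM in controls and 134 ± 20.5 CPM in mutants. That is a log2 fold change of -0.20 (SE 0.11), or -0.11 (SE 0.10) with the length trend removed. The mutants, at 110 to 147.2 CPM, lay just under the lowest control at 147.4 CPM, and with median-ratio scaling in place of TMM the groups overlapped. *Stab2* (chromosome 10, 86841198 to 87008025, 69 exons) was scarce, with 26, 37 and 27 reads in E11.5 controls and 69, 71 and 54 in E11.5 mutants. Unlike *Lyve1* it was higher in mutants, with 4.32 to 4.65 CPM in the mutants and 1.70 to 2.39 CPM in the controls. In a fit without the minimum level its log2 fold change was 1.16 (SE 0.30, edgeR adjusted p = 0.122), which did not pass the threshold of 0.05. At E12.5 *Stab2* overlapped between the groups, with 2.25 ± 0.78 CPM in controls and 2.86 ± 1.14 CPM in mutants. *Stab1* shares its locus with *Nt5dc2* and *Stab2* with 5 predicted genes, and since no use of the strand is stated, reads of such neighbours may be included.

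*Prox1*, the transcription factor that sets lymphatic identity, lies on chromosome 1 from 190118035 to 190170714 (minus strand) and is overlapped by its antisense transcript *Prox1os*. In the E11.5 controls it had 14.96, 24.5 and 14.8 CPM, and in the mutants 23.3, 29.5 and 11.4 CPM. The groups overlapped fully, mutant 2 being highest and mutant 3 lowest of all 6 hearts, and the log2 fold change was 0.25 (SE 0.33, edgeR adjusted p = 0.90). With sex in the fit, which leaves mutant 3 alone against the controls, it was -0.64 (SE 0.32). At E12.5 the controls had 49.3, 40.1 and 41.4 CPM and the mutants 31.9, 32.1 and 31.3 CPM. All mutants lay below all controls and within a narrow band, and the log2 fold change was -0.44 (SE 0.10), a fold of 1.36, which is short of the 1.5-fold that a call required. With the length trend of the libraries removed it was -0.40 (SE 0.09).

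*Pdpn*, on chromosome 4 from 143267431 to 143299564 (minus strand), was the gene of the 9 that stood higher in mutants at E12.5 with no overlap. It had 19.0, 22.6 and 22.2 CPM in the E12.5 controls and 29.4, 26.6 and 28.9 CPM in the mutants. The log2 fold change was 0.42 (SE 0.10), or 0.38 (SE 0.10) with the length trend removed. At E11.5 the 3 controls had 26.9, 23.9 and 35.4 CPM and the mutants 27.1, 23.0 and 26.2 CPM, so the groups overlapped, with a log2 fold change of -0.17 (SE 0.17, edgeR adjusted p = 0.855). The level of *Pdpn* in E12.5 mutants, 28.3 ± 1.498 CPM, was near that of E11.5 controls, 28.7 ± 5.94 CPM.

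The sequences just before the start sites of *Prox1* and *Pdpn* are shown because these genes separated the E12.5 groups in opposite directions. They are the 250 bases upstream of the RefSeq start (GRCm38.p6, minus strand of both genes, 5′ to 3′), at chr1:190170828-190171077 and chr4:143299565-143299814, with each CG dinucleotide in capitals.
Prox1: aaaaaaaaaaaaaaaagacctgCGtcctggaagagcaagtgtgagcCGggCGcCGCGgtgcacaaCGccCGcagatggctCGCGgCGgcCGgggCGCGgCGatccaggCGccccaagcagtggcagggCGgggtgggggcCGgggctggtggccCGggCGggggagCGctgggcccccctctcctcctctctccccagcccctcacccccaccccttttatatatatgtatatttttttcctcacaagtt
Pdpn: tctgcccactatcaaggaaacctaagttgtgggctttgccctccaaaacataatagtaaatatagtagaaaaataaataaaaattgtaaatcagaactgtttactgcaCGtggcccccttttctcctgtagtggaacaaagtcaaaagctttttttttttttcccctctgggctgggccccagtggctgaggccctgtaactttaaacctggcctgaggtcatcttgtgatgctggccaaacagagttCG
The *Prox1* window holds 20 CG dinucleotides and the *Pdpn* window 2, against a median of 6 over the 32851 promoters of the same length. RefSeq gives *Prox1* a second start, whose window holds 11 CG. RefSeq entries were matched for 7 of the 9 genes and those of *Nrp2* with 32, *Vegfc* with 30 and *Flt4* with 16 CG were also rich, while *Stab1* with 5 and *Stab2* with 3 were not. The run GAGAGAGA, sought on both strands, was in none of the 7, and 3.26% of all promoters hold it. The counts describe these letters only, since no binding or methylation was measured here.

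The ligand *Vegfc* (chromosome 8, 54077606 to 54187096) differed little between genotypes. It had 28.6, 29.6 and 25.3 CPM in E11.5 controls and 22.2, 17.7 and 25.4 CPM in E11.5 mutants. Mutant 3 just exceeded control 3, and the log2 fold change of -0.35 (SE 0.17, edgeR adjusted p = 0.529) did not pass. At E12.5 the level was 23.6 ± 3.94 CPM in controls and 20.6 ± 2.35 CPM in mutants with overlapping libraries, a log2 fold change of -0.18 (SE 0.14). *Vegfd* (listed as *Figf*), which encodes the other ligand of VEGFR3, is on chromosome X and outside the authors' comparisons, so its levels are given without a test. It had 106, 123 and 81 reads in E12.5 controls and 57, 66 and 37 in E12.5 mutants. These are 6.30 ± 1.15 and 3.36 ± 0.816 CPM with no overlap, while at E11.5 the levels of 3.21 ± 0.672 and 2.28 ± 0.452 CPM came from 29 to 61 reads per library, and every mutant lay under every control there too.

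*Ccbe1*, on chromosome 18, had 179, 78 and 66 reads in E11.5 controls and 38, 42 and 6 in E11.5 mutants. That is 11.7, 5.04 and 4.63 CPM against 2.44, 2.55 and 0.516 CPM, so all mutants lay under all controls, while control 1 was more than double either of the other controls. The log2 fold change was -1.91 (SE 0.54), and it was -1.35 without control 1. With sex in the fit, which leaves mutant 3 with its 6 reads alone against the controls, it was -3.75 (SE 0.77). At E12.5 the gene was low in both groups, with 33, 34 and 43 reads in controls and 15, 39 and 32 in mutants, and the libraries overlapped.

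The receptor gene *Flt4* (chromosome 11, 49609263 to 49652739) and the coreceptor gene *Nrp2* (chromosome 1, 62703285 to 62818695) both varied widely among the E11.5 hearts. *Flt4* had 24.8, 31.2 and 18.2 CPM in E11.5 controls and 30.7, 35.7 and 21.9 CPM in mutants, and a log2 fold change of 0.26 (SE 0.23, edgeR adjusted p = 0.815), which turned to -0.15 with sex in the fit. *Nrp2* had 26.0, 48.2 and 33.0 CPM in E11.5 controls and 33.9, 25.6 and 15.8 CPM in mutants, and a log2 fold change of -0.50 (SE 0.29, edgeR adjusted p = 0.655). Replicate 3 was the lowest E11.5 heart of its genotype for *Flt4*, in controls as in mutants. The correlations of those libraries with gene length were -0.300 and -0.506. The longer *Nrp2* was lowest in control 1 and mutant 3, and the longer *Stab1* in control 3 and mutant 1. With the length trend removed, the E11.5 log2 fold changes were 0.237 for *Flt4* (SE 0.175) and -0.534 for *Nrp2* (SE 0.211). They were 0.180 for *Stab1* (SE 0.210) and 0.225 for *Prox1* (SE 0.292). The part of the length trend in the level of a single heart was not tested. At E12.5 *Nrp2* had 39.1, 42.6 and 35.3 CPM in controls and 26.5, 23.4 and 30.0 CPM in mutants. The groups were separate, with a log2 fold change of -0.54 (SE 0.11), a fold of 1.45, just short of the 1.5-fold limit, and of -0.44 (SE 0.11) without the length trend. *Flt4* had 37.6, 43.8 and 39.0 CPM in E12.5 controls and 37.4, 27.1 and 27.9 CPM in mutants, where mutant 1 lay just under the lowest control and the groups overlapped under median-ratio scaling. Its log2 fold change was -0.37 (SE 0.13), or -0.31 (SE 0.13) with the length trend removed.

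A call needs a fold of at least 1.5 with an adjusted p no higher than 0.05. At E11.5, apart from *Lyve1* and *Ccbe1*, which are described only, 6 of the 9 genes were tested. Of these, edgeR, DESeq2 and limma called 0, and 0 had an unadjusted p under 0.05, while 0.115% of all 12197 genes tested at that stage were called by edgeR. Apart from *Lyve1*, whose hearts did not overlap, the 2 genotypes were separate at E11.5 for *Ccbe1*, lower in mutants, and *Stab2*, higher in mutants. Of all tested genes, 16.4% were separate, and *Stab2* was not among those tested. At E12.5, where the choice of genes used the comparison and the counts describe that choice, 1 of 7 tested genes was past both limits (*Lyve1*; 2.95% of all 12257 genes), and 4 were past the adjusted p alone (*Lyve1*, *Prox1*, *Nrp2* and *Pdpn*; 5.001% of all genes). Libraries did not overlap for 6 of the 9, against 26.4% of all tested genes. Of these 6, *Flt4* and *Stab1* overlapped under median-ratio scaling. The 2 stages use different hearts. The median log2 fold change of the 7 members tested at E12.5 was -0.37, beside 0.00 for all genes.

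**Figure D2:**
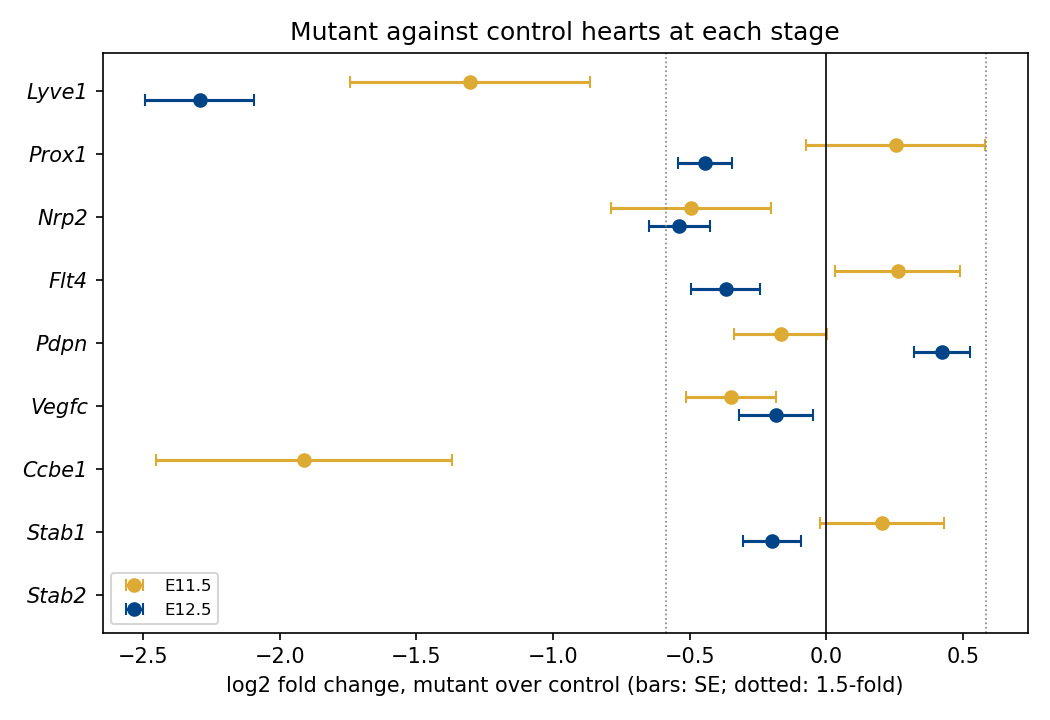
Log2 fold change of mutant over control hearts at E11.5 (yellow) and E12.5 (blue), from edgeR with 3 libraries per group; bars are standard errors and dotted lines mark a 1.5-fold change. *Lyve1* is left of the 1.5-fold line at both stages, *Pdpn* is at 0.42 at E12.5, and *Ccbe1* at E12.5 and *Stab2* have no point because they were under the level needed for testing.

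From E11.5 to E12.5, control hearts gained RNA of *Lyve1*, *Prox1* and *Flt4*. The stage difference itself took no part in the choice of genes, but the comparison shares its libraries with those above. A choice of genes that stand lower in E12.5 mutants can favour high E12.5 controls, and so a rise here. For *Lyve1* the E11.5 controls entered the choice as well. The p-values and counts of this comparison are thus not independent of the choice. The stage of the embryos also cannot be told apart from when the libraries were made or from the sex of the hearts. All E11.5 controls were male. *Lyve1* rose from 4.28 ± 0.705 to 12.6 ± 2.31 CPM, a log2 fold change of 1.56 (SE 0.21, edgeR adjusted p = 0.00601). *Prox1* rose from 18.1 ± 5.54 to 43.6 ± 4.996 CPM, by 1.27 on the log2 scale (SE 0.19, edgeR adjusted p = 0.00881). In both genes every E12.5 control exceeded every E11.5 control. *Flt4* rose from 24.7 ± 6.51 to 40.1 ± 3.23 CPM, a log2 fold change of 0.70 (SE 0.17, edgeR adjusted p = 0.0331). *Stab1*, with a log2 fold change of 0.51 (SE 0.14, edgeR adjusted p = 0.0461), passed the adjusted p and not the fold, and *Pdpn* at -0.43 (SE 0.15, edgeR adjusted p = 0.0875) passed neither. *Nrp2* and *Vegfc* overlapped between stages. Leaving out *Ccbe1*, 3 of 7 tested genes were called by edgeR, and 5.28% of 12252 genes overall. DESeq2 and limma called 3 of these 7 as well. *Ccbe1* had 7.12 ± 3.97 CPM in E11.5 controls and 2.25 ± 0.368 CPM in E12.5 controls, a log2 fold change of -1.66 (SE 0.37), and of -1.10 without E11.5 control 1.

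These stage calls differed in how far they held. With the sex of the embryo in the fit, E12.5 control 3, the only male E12.5 control, stands alone against the 3 male E11.5 controls. That fit rests on 1 heart and cannot decide whether the calls hold. The log2 fold changes were then 1.25 for *Lyve1*, 1.20 for *Prox1* and 0.67 for *Flt4*. With the length trend removed, *Lyve1* (1.57) and *Prox1* (1.17) remained called while *Flt4* was at 0.52 (SE 0.15, edgeR adjusted p = 0.0759) and *Stab1* at 0.24 (SE 0.13, edgeR adjusted p = 0.304). With all 12 libraries in one fit *Flt4* was lost (edgeR adjusted p = 0.0621). *Lyve1* stayed called without any single heart. *Prox1* was lost without E12.5 control 1 (adjusted p = 0.0565, edgeR). *Flt4* was lost in 5 of 6 such fits, and kept only without E11.5 control 2 (adjusted p = 0.003).

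In mutant hearts the same interval gave 0 calls among the 7 tested genes by edgeR, 0 at an unadjusted p under 0.05, and 0 by DESeq2 and by limma, while 0.556% of 12238 genes were called. The E12.5 mutants entered the choice of genes, and for *Lyve1* the E11.5 mutants did too. A choice of genes that stand lower in E12.5 mutants can favour a small rise here. The p-values and counts of this comparison are thus not independent of the choice either. *Lyve1* went from 1.71 ± 1.05 to 2.55 ± 0.363 CPM with overlapping hearts, a log2 fold change of 0.56 (SE 0.44, edgeR adjusted p = 0.742). *Prox1* went from 21.4 ± 9.16 to 31.7 ± 0.413 CPM, and although each E12.5 mutant exceeded each E11.5 mutant, the log2 fold change of 0.56 (SE 0.27, edgeR adjusted p = 0.588) did not pass. *Flt4* was at 29.4 ± 6.95 and 30.8 ± 5.71 CPM, a log2 fold change of 0.06 (SE 0.20, edgeR adjusted p = 0.931). *Stab2* was lower in each E12.5 mutant than in each E11.5 mutant, at 1.63 to 3.88 against 4.32 to 4.65 CPM, and was not tested.

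**Figure D3:**
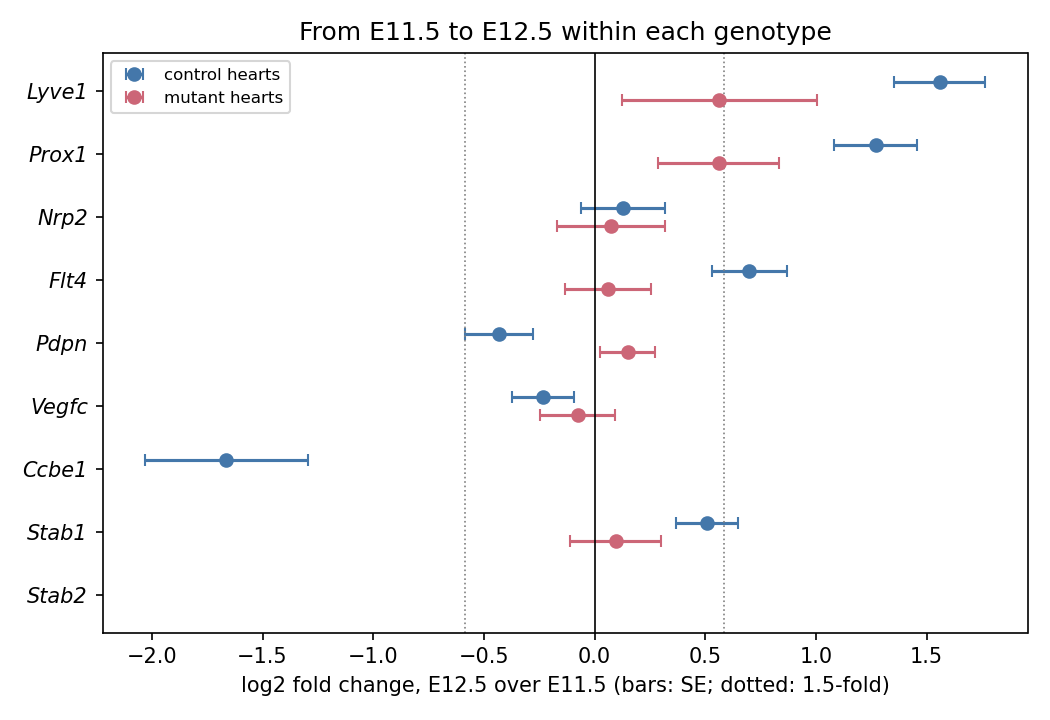
Log2 fold change from E11.5 to E12.5 within control hearts (blue) and within mutant hearts (red), from edgeR with 3 libraries per group; bars are standard errors and dotted lines mark a 1.5-fold change. *Lyve1* is at 1.56 in controls and 0.56 in mutants, and *Prox1* at 1.27 and 0.56. *Stab2*, and *Ccbe1* in mutants, have no point because they were under the level needed for testing.

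A gene past the threshold in controls and not in mutants is not thereby shown to differ, so the difference itself was estimated over all 12 libraries, by subtracting the mutant effect of E11.5 from that of E12.5. It holds the E12.5 comparison used in the choice of genes, so the members' values are descriptions, with no p-value. The estimate was -0.99 on the log2 scale for *Lyve1* (SE 0.48), -0.71 for *Prox1* (SE 0.37), -0.63 for *Flt4* (SE 0.29), 0.59 for *Pdpn* (SE 0.20) and 1.60 for *Ccbe1* (SE 0.70). Of all 12270 genes, 0% were called by edgeR and 0 by limma, against 43 by DESeq2, and 551 had an unadjusted p under 0.05. No member was called by any of the 3 tools, so a difference between the stages in the mutant effect was not shown for any of them.

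Because *Lyve1* is also carried by macrophages and by other endothelium, the levels of marker genes of these cells are set beside it. The 17 macrophage markers together stood at 48.3 to 125 CPM in E11.5 controls and 23.2 to 28.5 CPM in E11.5 mutants, and at 118 to 158 against 66.9 to 89.7 CPM at E12.5, lower in every mutant at both stages. None of the 17 was at 0 in a whole group. All 13 tested markers had negative log2 fold changes at both stages, the median being -1.84 for the E11.5 hearts and -0.61 for those of E12.5, beside 0.00 for all genes. At E11.5, 1 of the 13 was called by edgeR and 1 by limma, against 7 by DESeq2, with 10 at an unadjusted p under 0.05, beside the 0.115% of all genes. It was *C1qb*, a complement subunit, with 7.93 ± 2.98 CPM in controls and 1.25 ± 0.193 CPM in mutants (log2 fold change -2.66, SE 0.37, edgeR adjusted p = 0.0444). At E12.5 *Csf1r*, the receptor for the main macrophage growth factor, *Emr1* (*Adgre1*, F4/80), *Cx3cr1*, *Mrc1* and *Tyrobp* were called lower, 5 of 13 beside 2.95% of all genes, and DESeq2 called 6 and limma 5. *Mrc1*, a mannose receptor that lymphatic and sinusoidal endothelium also carry, fell the most of these 5, to 12.7 ± 3.36 CPM in mutants against 31.6 ± 2.68 CPM in controls (log2 fold change -1.31, SE 0.17, edgeR adjusted p = 0.00302).

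Set against the macrophage sum, *Lyve1* was at 3.601 to 7.22 CPM per 100 CPM of the markers in E11.5 controls and at 2.48 to 12.1 in E11.5 mutants, which overlap. At E12.5 the ratio was 6.37 to 12.2 in controls and 2.91 to 4.30 in mutants, with no overlap, so *Lyve1* was lower there also relative to these markers. The sum of the 15 pan-endothelial markers was higher in mutants at E11.5, at 1089 to 1265 CPM in controls and 1312 to 1720 CPM in mutants. Of the 15, 2 had negative log2 fold changes there, *Robo4* (-0.999), lower in every mutant, and *Cldn5* (-0.238). At E12.5 the sums of the 15 markers overlapped, at 1351 to 1445 and 1305 to 1660 CPM. Per 100 CPM of these markers, *Lyve1* was at 0.276 to 0.445 in E11.5 controls and 0.0538 to 0.163 in E11.5 mutants, and at 0.746 to 1.01 against 0.157 to 0.193 at E12.5. The mutants were lower in *Lyve1* per endothelial marker RNA at both stages. The genotype difference of *Lyve1* at both stages took part in the choice of genes, so the ratios to both marker sums only describe that choice. The part of macrophages or of endothelial subtypes in the *Lyve1* difference was not tested.

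**Figure D4:**
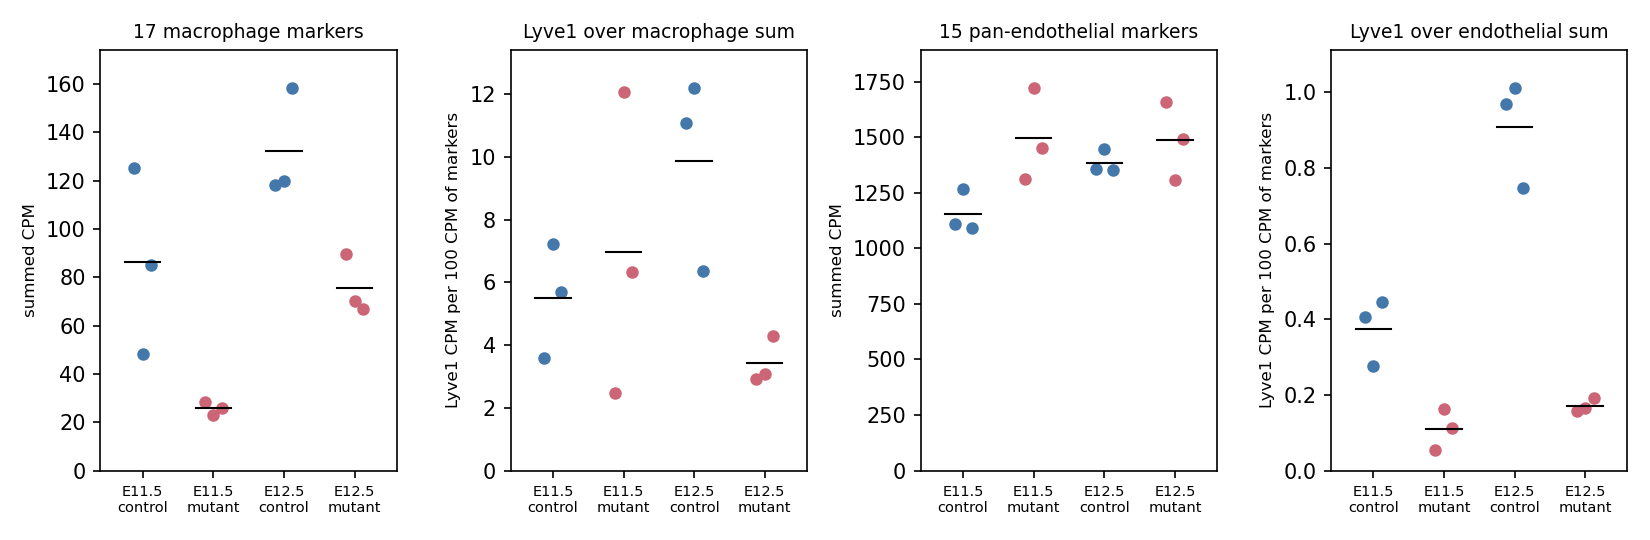
Summed CPM of 17 macrophage and of 15 pan-endothelial markers in the 12 libraries, each beside the *Lyve1* CPM per 100 CPM of those markers; points are single heart libraries (blue controls, red mutants) and black lines are means of 3. The *Lyve1* to macrophage ratio overlaps at E11.5 and not at E12.5, where the mutants are at 2.91 to 4.30, and the *Lyve1* to endothelial ratio is lower in all mutants at both stages.

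Of the 15 pan-endothelial markers, none was called at E11.5 by edgeR, DESeq2 or limma, with 8 at an unadjusted p under 0.05, and 3 were called at E12.5, beside 2.95% of all genes (6 at an unadjusted p under 0.05, 3 calls by DESeq2 and 2 by limma). *Cldn5*, a tight-junction claudin, had 5.16 ± 1.01 CPM in controls and 2.46 ± 0.536 CPM in mutants (log2 fold change -1.06, SE 0.25, edgeR adjusted p = 0.035). *Robo4*, an endothelial guidance receptor, fell by 0.92 on the log2 scale (SE 0.22, edgeR adjusted p = 0.0392), and *Icam2*, an adhesion molecule, rose by 0.65 (SE 0.10, edgeR adjusted p = 0.00593). Among 9 endocardial markers *Hapln1*, *Gata5* and *Tmem100* rose at E12.5, 3 of 9 beside 2.95% of all genes, and DESeq2 called 3 and limma 2. At E11.5 edgeR and limma called 0 of these 9 and DESeq2 1, with 5 at an unadjusted p under 0.05. Markers of epicardium and mesothelium, a layer that also carries podoplanin, held 4 risers of 11 tested at E12.5, the mesothelial glycoprotein gene *Msln* and the keratins *Krt8*, *Krt18* and *Krt19*, beside 2.95% of all genes, and DESeq2 and limma called 4 as well. The epicardial genes *Wt1* (log2 fold change -0.05), *Upk1b* (-0.02) and *Tcf21* (0.01) did not pass. Nor did *Upk3b* (0.191), *Aldh1a2* (0.172), *Tbx18* (0.136) and *Lrrn4* (0.136). The summed level of the whole list, the 4 risers included, was 726 to 774 CPM in E12.5 mutants and 487 to 701 CPM in E12.5 controls. The sum was thus higher in mutants, as *Pdpn* was, but only the 4 risers had an unadjusted p under 0.05. At E11.5 the sum was 684 to 763 CPM in mutants and 774 to 1099 CPM in controls. There edgeR and limma called 0 of the 11 and DESeq2 5, with 7 at an unadjusted p under 0.05. *Aldh1a2* (log2 fold change -1.07) and *Wt1* (-0.74) were lower and *Krt19* (0.66) higher in every E11.5 mutant. The part of this layer in the *Pdpn* level was not tested. Neither liver list, of sinusoid or of parenchyma genes, had a call by edgeR or limma, and DESeq2 called 1 sinusoid gene at E11.5. At an unadjusted p under 0.05 there were 3 and 2 of 4 sinusoid genes at E11.5 and E12.5, and 0 of 3 and 3 of 4 parenchyma genes. Liver parenchyma markers nevertheless reached 50.1 CPM in 1 E12.5 mutant heart and 56.4 CPM in 1 E11.5 mutant heart, and the other 10 hearts had at most 24.8 CPM. The sinusoid sum, which touches *Stab2*, was 44.6 to 58.3 CPM in E11.5 controls and 53.7 to 80.8 CPM in E11.5 mutants. The part of liver tissue in the *Stab2* level was not tested.

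Among 38 other genes of lymphatic specification and VEGF-C signalling, 35 were tested at E11.5 and 0 were called by edgeR and by limma and 5 by DESeq2, with 11 at an unadjusted p under 0.05. At E12.5, 34 were tested and 3 were called, beside 2.95% of all genes, with 16 at an unadjusted p under 0.05, 4 calls by DESeq2 and 3 by limma. *Foxc2*, a forkhead factor needed for lymphatic valves, was higher in mutants, at 27.8 ± 3.26 against 15.8 ± 3.49 CPM (log2 fold change 0.83, SE 0.15, edgeR adjusted p = 0.0142). *Adm*, which encodes the lymphangiogenic peptide adrenomedullin, was higher at 13.4 ± 3.21 against 6.95 ± 2.28 CPM (0.96 on the log2 scale, SE 0.24, edgeR adjusted p = 0.046). *Reln*, whose secreted product lymphatic endothelium makes, was lower at 9.18 ± 0.826 against 17.6 ± 2.48 CPM (log2 fold change -0.93, SE 0.14, edgeR adjusted p = 0.00638). *Svep1* (log2 fold change -0.46, SE 0.10, edgeR adjusted p = 0.0267) and *Gja1*, which encodes connexin 43 (0.49, SE 0.12, edgeR adjusted p = 0.039), passed the adjusted p and not the fold. The median of the 34 genes was -0.10, beside 0.00 for all genes.

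Over the 12 libraries, the genes whose log2(CPM + 0.5) was most like that of *Lyve1* among 12030 were *Tnip2* (Pearson r = 0.916), *Spats2l* (0.913), *Crhr2* (0.908), *Lrrn2* (0.906) and *Plekhb2* (0.905). None is a member, and the closest member was *Nrp2* at 0.534. Within the 9 genes the highest correlations were those of *Prox1* with *Flt4*, at 0.850, and of *Flt4* with *Stab1*, at 0.780, and the lowest was that of *Flt4* with *Pdpn*, at -0.724. *Prox1* was most like *Prkaa2* (0.978), *Dot1l* (0.977) and *Leng8* (0.977), *Nrp2* like *Fbn2* (0.938), *Rere* (0.935) and *Plxna4* (0.921), and *Flt4* like *R3hdm2* (0.950), *Stat5b* (0.937) and *Rnf214* (0.931). The genes most like *Pdpn* included *Anxa3* (0.882) and *Lsp1* (0.882). *Vegfc* was most like *Zfp341* (0.919), *Kctd5* (0.885) and *Efemp2* (0.881), and *Stab1* like *Asb10* (0.936), *Slc2a10* (0.929) and *Cul9* (0.925). The points are the same 12 hearts, which share group, depth and the trend with gene length, and the values are descriptions.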

How the data were processed

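RNA of whole hearts was sequenced by the authors in 12 libraries, and per the labels the processing named Bowtie2, DESeq and the build mm10. The counting program, the annotation and the use of the strand are not given in the sources used here. The authors deposited average counts per group (estimated counts, means of 3 libraries), and a table of 20368 genes named RPKM whose values, by their construction, are another unit, a count multiplied by gene length and a library factor, with no log2 or other transform. The authors' own fold changes and p-values were not used. Whole counts were recovered for 17827 genes from the average counts, within 2.14e-08 of a whole number. The coordinates and overlaps are from GENCODE vM21 (GRCm38).

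Counts were compared with edgeR 4.0.16 (TMM, glmQLFit and glmQLFTest; R 4.3.3), with Benjamini-Hochberg adjustment over all genes whose mean was 0.5 RPKM or more. RPKM here were computed from the counts. A call needed a fold of at least 1.5 with an adjusted p no higher than 0.05, as in the study's methods. Standard errors were derived from the F statistic. The recovery of counts and the test were tested on simulated data. An exact permutation test of 3 against 3 hearts cannot give a p under 0.1 and was not used. DESeq2 1.42.0, limma 3.58.1 on log2(RPKM + 0.5), other scaling, filters, a sex term, a replicate block, 1 fit of all 12 libraries and each library left out were alternatives, and removal of the gene length trend (lowess offsets) was added after seeing the data. Depth was 11994148 to 17483982 reads per library, and counting error is the lower limit of the error.

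The 9 members, the marker lists and the tests were chosen with earlier results of these data known. Named genes are the 9 members, *Hira*, genes of each list past the thresholds at either stage (the 4 of lowest p where more passed), and the genes most like each member, of which 1 is not reported here. *Emr1*, beyond the 4 macrophage markers of lowest p, *Vegfd*, and pathway and epicardial genes without a call were named after their values were seen.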

Additional observations from a re-analysis of the deposited data

How the results depend on the processing

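Leaving out 1 heart at a time, the log2 fold change of *Lyve1* ran from -1.88 to -0.93 at E11.5 and from -2.43 to -2.17 at E12.5, and that of *Ccbe1* at E11.5 from -2.20 to -1.35. Counts of called members, which here hold *Ccbe1* although it passed the minimum through E11.5 controls alone, changed as follows. At E11.5, 1 was called with DESeq2 (*Ccbe1*). At E12.5, 0 were called with a mean RPKM of at least 5, where *Lyve1* is not tested, 4 without a fold threshold and 1 to 2 with hearts left out, the second being *Nrp2* without control 3 or mutant 3. From E11.5 to E12.5 in controls, 2 were called with a mean RPKM of at least 5, 0 with a sex term, 2 with all 12 libraries in one fit and 1 to 4 with hearts left out (1 without E12.5 control 1, 2 without E12.5 control 2). Over all genes, E11.5 gave 14 calls, and 248 with DESeq2, 73 without a filter, 6 with a mean RPKM of at least 5, 29 with a sex term, 65 with the length trend removed, 214 with all libraries in one fit and 0 to 15 with hearts left out (0 without control 1, control 3, mutant 1 or mutant 2). E12.5 gave 362, and 157 with a mean RPKM of at least 5, 130 in one fit, 613 without a fold threshold and 151 to 368 with hearts left out. The control stages gave 647, and 363 with a mean RPKM of at least 5, 19 with a sex term, 303 with the length trend removed, 344 in one fit, 1402 without a fold threshold and 44 to 1406 with hearts left out (44 without E12.5 control 1). The mutant stages gave 68, and 227 with DESeq2, 119 without a filter, 29 with a mean RPKM of at least 5, 125 in one fit and 1 to 123 with hearts left out (1 without E12.5 mutant 2). The difference of mutant effects gave 0, and 43 with DESeq2 and 0 to 10 with hearts left out (10 without E11.5 mutant 3). Correlations of same-numbered deviations ran from -0.154 to 0.474, so replicate numbers gave no regular pairing. At E11.5, though, 2 controls were most like the mutant of their own number (0.474 and 0.328). A step shared by replicate number there was not tested. With a replicate block E11.5 gave 73 calls, E12.5 424, the control stages 770 and the mutant stages 36, and the count of called members was the same. A fit with a sex term rests on 1 male mutant at E11.5 and on 1 male E12.5 control between control stages, each against the 3 male E11.5 controls. With a sex term the direction turned for *Prox1* (-0.64), *Flt4* (-0.15) and *Stab1* (-0.034) at E11.5, for *Nrp2* between control stages (-0.008) and, in the difference of effects, for *Nrp2* (0.22) and *Vegfc* (-0.042). With the length trend removed it turned for *Nrp2* between control stages (-0.13), for *Nrp2* (-0.038), *Flt4* (-0.02) and *Stab1* (-0.05) between mutant stages and for *Nrp2* in the difference (0.092). With hearts left out, values crossed 0 at E11.5 for *Prox1* (-0.037 to 0.546), *Pdpn* (-0.285 to 0.008) and *Stab1* (-0.068 to 0.372), between control stages for *Nrp2* (-0.055 to 0.389), between mutant stages for *Nrp2* (-0.15 to 0.36), *Flt4* (-0.10 to 0.21), *Vegfc* (-0.216 to 0.058) and *Stab1* (-0.035 to 0.364), and in the difference for *Nrp2* (-0.33 to 0.23). None of the turned values was past the threshold, and the cause was not tested. Depth limits *Stab2* and *Ccbe1* most, with as few as 24 and 6 reads in a library.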
